A study of Homo sapiens with 4 samples.

Results

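The genes described here are the pregnane X receptor (PXR, gene NR1I2), 2 CYP3A enzymes and 7 ATP-driven drug efflux pumps, taken by symbol as 10 of the 20812 targets in the count files. They were measured in the human colon carcinoma line HCT116, with or without overexpression of human IDO1, the enzyme that opens the ring of tryptophan on the way to kynurenine. Each line was kept for 24 h with 1 mM indole, a bacterial product of tryptophan, or with DMF, the solvent. The 4 groups are called solvent-treated wild type, indole-treated wild type, solvent-treated IDO1 cells and indole-treated IDO1 cells, the IDO1 cells being hIDO1 overexpressing HCT116. How the IDO1 line was made, its promoter and whether it is 1 clone are not given in the sources used here. Each group had 1 library of AmpliSeq reads, which come from 1 short PCR target per gene, so a difference between groups has no replicate check. The series' design text names 2 replicates each, and whether a count column sums them is not stated. Intervals are 95% intervals of counting error only, with each read taken as independent. These PCR reads carry no molecular identifiers and several can stem from 1 molecule, so the intervals may be too narrow.

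PXR is a nuclear receptor of liver and gut that binds many drugs, bile acids and indole compounds. It pairs with the retinoid X receptor on repeated hexamers near its target genes, of which CYP3A4 is the best known, and it can raise drug pumps such as ABCB1 and ABCC2. CYP3A enzymes oxidize drugs and steroids. The pumps of the ABC family use ATP to move drugs, conjugates and bile acids out of the cell.

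The main findings were these. No read of PXR or of CYP3A4 was found in any of the 4 libraries, and CYP3A5 had at most 4 reads. ABCC3, a pump of glucuronides and bile acids in the basolateral membrane, was 3.30-fold higher with indole in wild type cells (2.78 to 3.92) and 1.20-fold higher in the IDO1 line (0.982 to 1.48). ABCC1, ABCC2 and ABCC4 were between 1.07-fold and 1.45-fold higher with indole in both lines. ABCB1 and ABCG2 lay under 3 CPM (reads per 1000000, scaled between libraries by TMM) in every library. None of the 7 members tested passed edgeR's quasi-likelihood test with Benjamini-Hochberg adjustment for indole or for line. Of all 13122 genes tested, 0 passed for indole and 2.45% for line.

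Totals were 18283862 to 22736172 reads per library. The library of indole-treated wild type stood apart. It lay 2-fold or more from each other library in 252 to 395 genes, and the other libraries lay so far from each other in 7 to 38. Of 10 markers of colon epithelium, 7 had more than 3 reads in every library, among them EPCAM and CDX2, while CDX1 had 0 reads in all 4 and VIL1 at most 2. Of 10 hepatocyte markers, 1 to 3 had more than 3 reads. Of 8 enterocyte markers, 1 or 2 did, with a summed level of 0.627 to 1.34 CPM.

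The CYP3A promoters are shown because they carry the repeat that PXR is known to bind, next to genes that gave almost no reads. The sequences are from RefSeq (GRCh38.p14), which held windows for 8 of the 10 genes and none for ABCC1 or ABCC3. Each is the 250 bases before the annotated start, 5′ to 3′ on the strand of the gene. Capitals mark the everted repeat TGAACTNNNNNNAGGTCA, searched on both strands. It joins the hexamers AGTTCA, read on the other strand, and AGGTCA, so each match also holds both of these. CYP3A4 lies at chr7:99784185-99784434 (minus strand) and CYP3A5 at chr7:99679997-99680246 (minus strand).
CYP3A4: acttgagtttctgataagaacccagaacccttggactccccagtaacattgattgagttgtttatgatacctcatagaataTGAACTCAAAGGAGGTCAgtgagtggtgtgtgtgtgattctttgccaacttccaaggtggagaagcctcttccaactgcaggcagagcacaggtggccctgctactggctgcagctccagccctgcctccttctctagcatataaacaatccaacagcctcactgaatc
CYP3A5: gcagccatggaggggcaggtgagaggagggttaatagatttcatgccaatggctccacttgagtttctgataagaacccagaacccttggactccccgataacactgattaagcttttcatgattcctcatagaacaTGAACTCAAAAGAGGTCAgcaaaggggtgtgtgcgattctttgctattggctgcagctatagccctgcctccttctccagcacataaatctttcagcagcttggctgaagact

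The repeat ran from 169 to 152 bases before the start in CYP3A4 and from 113 to 96 in CYP3A5. Counted from 1 at its 5′ end, the 2 copies differ by 1 of 18 letters (G11A from CYP3A4 to CYP3A5). Only 3 of 35116 windows of this length held it (0.00854%), which are those of CYP3A4, CYP3A5 and 1 other gene. A match is a description of letters, not of a bound site.

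The windows of ABCC2 and ABCC4 are shown as those RefSeq held of the pumps higher with indole beyond counting error in both lines. ABCC5 also had ratios above 1 in both lines, but with intervals that hold 1, and its window is not shown. ABCC2 lies at chr10:99782390-99782639 (plus strand) and ABCC4 at chr13:95301452-95301701 (minus strand). Neither holds AGTTCA (8.8% of all windows) or AGGTCA (12.1%) on either strand. The capitals in ABCC4 mark a match on the other strand to the antioxidant response core TGACNNNGC, which 10.9% of windows hold and which was searched for on both strands. They do not mark the xenobiotic response core GCGTG, which 32.2% of windows hold, among them windows of ABCC4, ABCB1 and ABCG2. Direct repeats of AGTTCA with 3 or 4 bases between were in no member's window, but also in only 0% and 0.0057% of all windows. In the other member windows, AGTTCA was found before 1 start of ABCB1 and 1 of NR1I2, and AGGTCA before 1 start of ABCG2.
ABCC2: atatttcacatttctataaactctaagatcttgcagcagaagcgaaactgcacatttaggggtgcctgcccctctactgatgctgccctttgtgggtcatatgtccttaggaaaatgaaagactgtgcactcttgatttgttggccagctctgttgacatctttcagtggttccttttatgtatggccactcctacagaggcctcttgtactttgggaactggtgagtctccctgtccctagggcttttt
ABCC4: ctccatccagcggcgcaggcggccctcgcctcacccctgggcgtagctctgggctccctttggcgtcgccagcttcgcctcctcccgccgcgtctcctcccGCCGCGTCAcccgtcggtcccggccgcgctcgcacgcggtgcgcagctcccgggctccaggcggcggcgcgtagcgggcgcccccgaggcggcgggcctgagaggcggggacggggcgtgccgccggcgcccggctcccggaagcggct

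PXR itself gave no reads. NR1I2 had 0 reads in solvent-treated wild type, 0 in indole-treated wild type, 0 in solvent-treated IDO1 cells and 0 in indole-treated IDO1 cells. A count of 0 allows up to 3 reads, or 0.131 to 0.157 CPM across the libraries. In all, 4064 of the 20812 targets had 0 reads in all 4 libraries, and a target that amplifies poorly cannot be told apart from a gene that is not transcribed. Of the retinoid X receptors, RXRA and RXRB gave reads in every library, while RXRG was at 0 in both wild type libraries and at 2 reads in each IDO1 library. RXRA counted 2017 (DMF) and 2117 (indole) in wild type, and 2115 and 1647 among IDO1 cells. RXRB counted 1014 and 1201 in wild type, then 1001 and 874 among IDO1 cells, while NR1I3, the sister receptor known as CAR, had 0 in all 4 libraries. RXRA, RXRB, RXRG and NR1I3 were named after their values were seen.

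Among the enzymes, CYP3A4 also had 0 reads in all 4 libraries, with the same limits. CYP3A5 had 4 reads in solvent-treated wild type, 3 in indole-treated wild type, 1 in solvent-treated IDO1 cells and 0 in indole-treated IDO1 cells. The highest of these levels was 0.188 CPM (0.0512 to 0.482), and no 2 neighbours in the order of the 4 levels differed beyond counting error. CYP3A5 with indole over DMF in wild type gave a ratio of 0.824 (0.121 to 4.87). The IDO1 line over wild type in DMF gave 0.233 (0.00473 to 2.35). CYP3A7 and CYP3A43, their neighbours in the family, had 0 reads in all 4 libraries and were named after their values were seen. Reads of CYP3A genes can be shared between near-identical copies, so an assignment among them is uncertain.

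**Figure D1:**
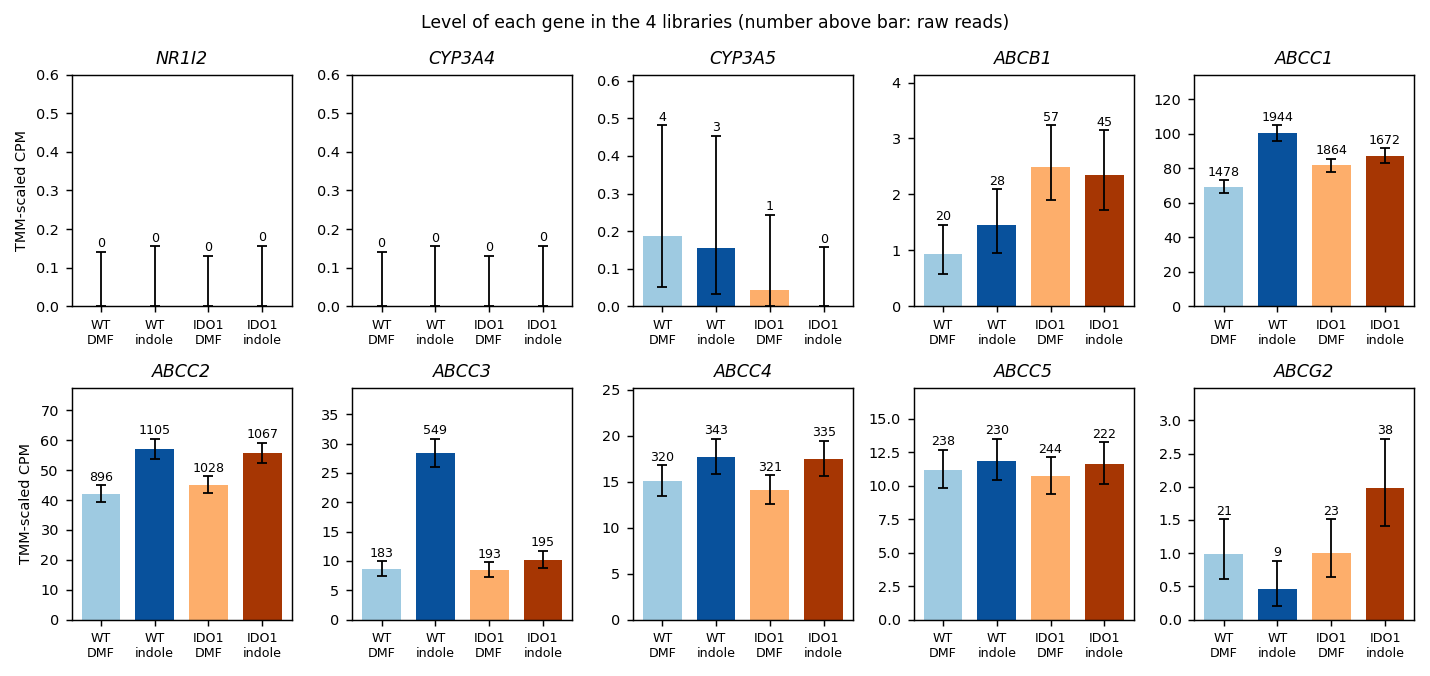
Level of each of the 10 genes as TMM-scaled CPM (y axis, linear and starting at 0, with its own scale per gene) in wild type (WT) and the IDO1 line with DMF or indole. Bars are single libraries, lines are 95% intervals of counting error and the numbers are raw reads. ABCC3 stands at 549 reads in wild type with indole and between 183 and 195 in the other 3 libraries, and the NR1I2 and CYP3A4 panels hold no bars, only the limit of 3 reads that a count of 0 allows.

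The ABCC pumps were the best measured members. ABCC3 had 183 reads in solvent-treated wild type, 549 in indole-treated wild type, 193 in solvent-treated IDO1 cells and 195 in indole-treated IDO1 cells. These are 8.60, 28.4, 8.46 and 10.2 CPM. One library was high and the other 3 did not differ beyond counting error from their neighbours in the order of levels. The step from indole-treated IDO1 cells to indole-treated wild type was 2.78-fold (2.36 to 3.30). Of 8679 genes compared in wild type, 22 had a larger log2 ratio (on CPM plus a pseudocount of 1) than the 1.61 of ABCC3, and 1.36% were at least 2-fold higher. ABCC3 reached the 10 CPM needed for this count only through the indole libraries.

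Whether the response of ABCC3 differs between lines was not tested, since no group has replicates. In the additive fit of edgeR over both lines, ABCC3 had a log2 fold change of 1.02 with indole (SE 0.298, unadjusted p 0.00202, adjusted p 1.0). In that fit 0 of 13122 genes passed (0%), with 448 genes at an unadjusted p under 0.05, and DESeq2 also called 0. The ratio of ABCC3 was above 1 in both lines, but its interval in the IDO1 line holds 1 (0.982 to 1.48). Without the library of indole-treated wild type, a fit on treatment alone gave ABCC3 0.26. That fit sets indole-treated IDO1 cells against the DMF libraries of both lines, so treatment and line are mixed. For line, the additive fit gave ABCC3 -0.78 (SE 0.298, adjusted p 0.278). Without the same library a fit on line alone gave 0.11, so the sign of the line effect rests on 1 library.

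The 3 genes with the profile most like that of ABCC3 over the 4 libraries, by Euclidean distance of centred log2 values among 8845 genes, were NEAT1, IRS2 and SLC16A6. NEAT1, a nuclear long noncoding RNA, had 5909 reads in solvent-treated wild type, 15216 in indole-treated wild type, 5589 in solvent-treated IDO1 cells and 6053 in indole-treated IDO1 cells (distance 0.126). IRS2, an insulin receptor substrate, had 275, 749, 322 and 299 reads in the same order (distance 0.172). SLC16A6, a monocarboxylate transporter family member, had 92, 361, 108 and 114 (distance 0.194). Each is high in the 1 library in which ABCC3 is high. Profiles over 4 libraries that share a single high library say nothing of a common control.

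ABCC1, a broad pump of glutathione conjugates in the plasma membrane, had 1478 reads in solvent-treated wild type, 1944 in indole-treated wild type, 1864 in solvent-treated IDO1 cells and 1672 in indole-treated IDO1 cells. Its levels were 69.5, 100.5, 81.7 and 87.4 CPM. With indole it was 1.45-fold higher in wild type (1.35 to 1.55) and 1.07-fold higher in the IDO1 line (1.0 to 1.14). All neighbours in the order of its 4 levels differed beyond counting error, the IDO1 libraries only just (lower limit 1.0005). The additive fit of edgeR, however, gave a log2 fold change of 0.32 for indole (SE 0.221, adjusted p 1.0). IDO1 cells exceeded wild type 1.18-fold in DMF (1.10 to 1.26) and lay 1.15-fold below it in indole (1.08 to 1.23). The line effect of the fit was 0.01 (SE 0.221, adjusted p 0.995).

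ABCC2, the apical pump of bilirubin and drug conjugates, had 896 reads in solvent-treated wild type, 1105 in indole-treated wild type, 1028 in solvent-treated IDO1 cells and 1067 in indole-treated IDO1 cells. The 2 indole libraries were the highest, at 57.1 and 55.8 CPM, and the 2 DMF libraries were at 42.1 and 45.1 CPM. ABCC2 was 1.36-fold higher with indole in wild type (1.24 to 1.48) and 1.24-fold higher in the IDO1 line (1.13 to 1.35). The IDO1 line over wild type gave 1.07 in DMF (0.977 to 1.17) and 0.976 in indole (0.897 to 1.06), so by TMM the lines did not differ beyond counting error. With library totals the ratio in DMF was 1.14 (1.05 to 1.25), an interval above 1. By edgeR's additive fit the indole effect was 0.38 (SE 0.217, adjusted p 1.0).

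ABCC4, a pump of cyclic nucleotides and bile acids, had 320 reads in solvent-treated wild type, 343 in indole-treated wild type, 321 in solvent-treated IDO1 cells and 335 in indole-treated IDO1 cells. It was again higher in both indole libraries once depth was taken into account, at 17.7 and 17.5 CPM against 15.0 and 14.1 CPM. The ratios were 1.18 (1.01 to 1.38) in wild type and 1.24 (1.06 to 1.45) in the IDO1 line. By edgeR the indole effect was 0.28 (SE 0.246, adjusted p 1.0).

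ABCC5, a pump of nucleotide analogs and cyclic nucleotides, was the steadiest of the 7 pumps by its range. It had 238 reads in solvent-treated wild type, 230 in indole-treated wild type, 244 in solvent-treated IDO1 cells and 222 in indole-treated IDO1 cells. Its levels were 10.7 to 11.9 CPM, and no neighbours in that order differed beyond counting error. The highest was 1.11-fold over the lowest, while the same quotient was 1.26 for ABCC4, 1.36 for ABCC2, 1.45 for ABCC1 and 3.35 for ABCC3.

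**Figure D2:**
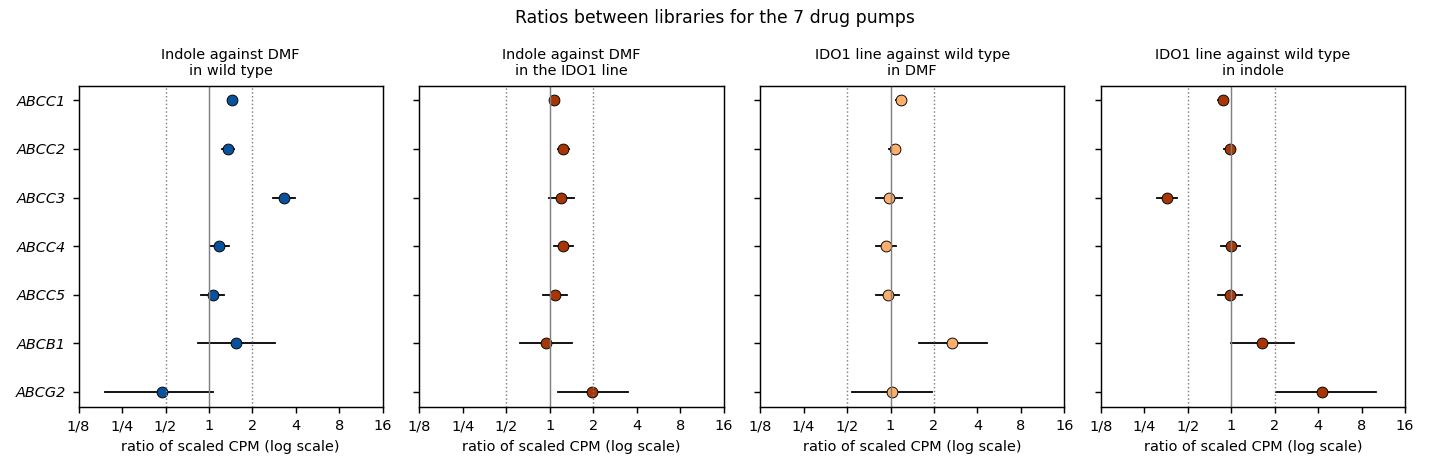
Ratio of scaled CPM between libraries (x axis, log scale) for the 7 pumps in the 4 comparisons, with 95% intervals of counting error as lines and dotted lines at 2-fold either way. ABCC3 lies at 3.30 for indole in wild type and at 0.359 for the IDO1 line over wild type in indole, and ABCB1 and ABCG2 have the widest intervals.

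The remaining pumps had low counts, though above the floor of 3 reads in every library. ABCB1, the multidrug pump P-glycoprotein, had 20 reads in solvent-treated wild type, 28 in indole-treated wild type, 57 in solvent-treated IDO1 cells and 45 in indole-treated IDO1 cells. Both IDO1 libraries were above both wild type libraries, at 2.50 and 2.35 CPM against 0.940 and 1.45 CPM. IDO1 cells exceeded wild type 2.66-fold in DMF (1.57 to 4.67) and 1.63-fold in indole (0.992 to 2.71). The additive fit of edgeR gave a line effect of 1.04 (SE 0.468, unadjusted p 0.0354, adjusted p 0.434), a fit in which 2.45% of 13122 genes passed. With indole ABCB1 had a ratio of 1.54 in wild type (0.836 to 2.88) and 0.941 in the IDO1 line (0.622 to 1.42). Reads can be shared with the near copy ABCB4, which had 3 reads in indole-treated IDO1 cells and 0 elsewhere and was named after its values were seen.

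Markers of embryonic kidney lines moved with the same contrast. Of 20 such markers, 7 had more than 3 reads in each wild type library and 17 in each IDO1 library. Their summed level was 76.7 to 79.8 CPM in wild type and 207 to 219 CPM in the IDO1 line, and 12 of 17 tested rose with line in edgeR's fit. The list was drawn up knowing that some of these genes were high in the IDO1 line. Their part in the ABCB1 difference was not tested.

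ABCG2, the breast cancer resistance protein, which exports urate and many drugs, had 21 reads in solvent-treated wild type, 9 in indole-treated wild type, 23 in solvent-treated IDO1 cells and 38 in indole-treated IDO1 cells. The 2 DMF libraries were close together, and the 2 indole libraries lay on either side of them. With indole the ratio was 0.471 in wild type (0.190 to 1.07) and 1.97 in the IDO1 line (1.14 to 3.46). Among the indole libraries, ABCG2 was 4.27-fold higher in IDO1 cells (2.03 to 10.04), with all counts under 40 reads. By edgeR its line effect was 0.99 (SE 0.593, adjusted p 0.647) and its indole effect 0.11 (SE 0.595, adjusted p 1.0). Without the library of indole-treated wild type, a fit on treatment alone gave ABCG2 0.99. It sets indole-treated IDO1 cells against the DMF libraries of both lines, so treatment and line are mixed.

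Taking the 4 comparisons in turn, 5 of the 10 members (ABCC1 to ABCC5) reached 10 CPM in at least 1 library, and 5 did not. For indole in wild type, 1 of 5 (ABCC3) was at least 2-fold higher and 0 lower, where 1.36% of 8679 genes were higher and 2.9% were apart in either direction. With library totals in place of TMM, 248 genes were higher and 75 lower, not 118 and 134, and the median of all genes moved from -0.04 to 0.14 while that of the 5 members moved from 0.43 to 0.60. The median log2 ratio of the 5 was 0.43 and 5 were above 0, where all genes had a median of -0.04 and 46.2% were above 0. For indole in the IDO1 line, 0 of 5 were 2-fold apart, as against 0.0821% of 8523 genes. Their median was 0.24 and 5 were above 0, where all genes had a median of -0.01 and 48.8% above 0. In both lines ABCC3 reached 10 CPM only with indole, so its place among the 5 required a log2 ratio above 0. Over the 4 members with 10 CPM in both libraries (ABCC1, ABCC2, ABCC4 and ABCC5), the median was 0.33 in wild type and 0.20 in the IDO1 line. The values given for all genes were not restricted in this way.

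For the IDO1 line against wild type in DMF, 4 members reached 10 CPM and 0 were 2-fold apart, against 0.447% of 8500 genes. Their median was 0.02 and 2 were above 0, where 48.4% of all genes were. ABCC4 and ABCC5 had ratios of 0.935 (0.798 to 1.10) and 0.956 (0.796 to 1.15). With library totals these were 1.0 and 1.02, so neither has a direction. In indole, 1 of 5 was 2-fold lower, namely ABCC3 at 2.78-fold (2.36 to 3.30), where 2.22% of 8765 genes were lower and 4.51% apart in either direction (200 genes higher and 195 lower by TMM, 147 higher and 274 lower by library totals). The median of the 5 was -0.03 and 0 were above 0, where all genes had a median of 0.03 and 52.8% were above 0. In this comparison the intervals of ABCC2, ABCC4 and ABCC5 hold a ratio of 1. This comparison and that of indole in wild type share the library of indole-treated wild type.

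**Figure D3:**
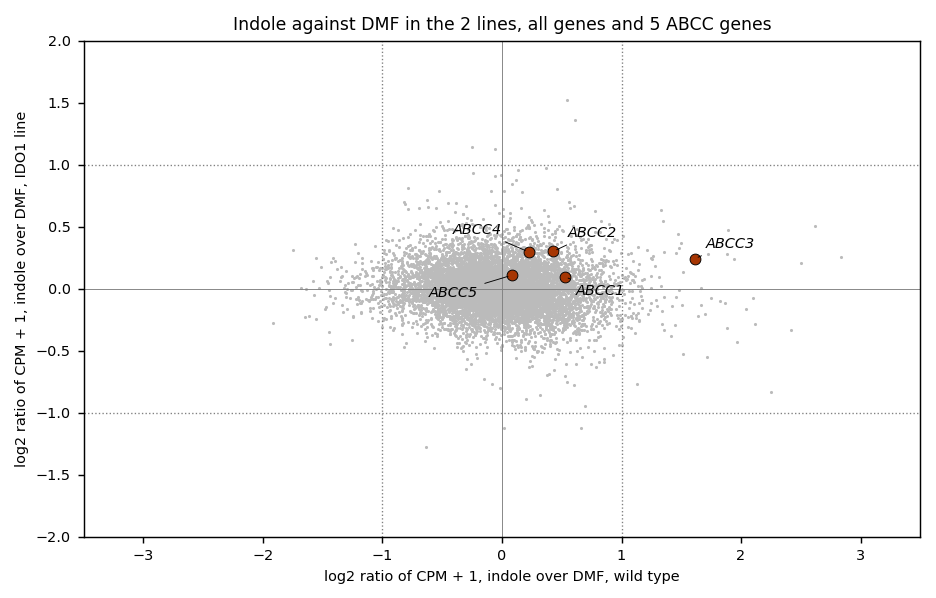
Log2 ratio of CPM plus 1 with indole over DMF in wild type (x axis) and in the IDO1 line (y axis) for 8845 genes in grey and the 5 ABCC genes as large brown points, with dotted lines at 2-fold. The ABCC genes all lie right of and above 0, and ABCC3 lies past 2-fold only on the wild type axis (1.61 against 0.24). Counting intervals of ABCC5 in both lines and of ABCC3 in the IDO1 line hold a ratio of 1.

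Other genes of the pathway were read from lists that hold no member. Of 23 measured targets of PXR beyond CYP3A4, CYP3A5 and the pumps, 16 had reads and 5 reached 10 CPM, and 0 of those 5 were 2-fold apart in any of the 4 comparisons. Under 10 CPM, CYP4F12, a fatty acid hydroxylase, had 15 reads in solvent-treated wild type, 81 in indole-treated wild type, 19 in solvent-treated IDO1 cells and 19 in indole-treated IDO1 cells. It was 5.93-fold higher with indole in wild type (3.39 to 11.1), and its ratio in the IDO1 line was 1.19 (0.597 to 2.38). By edgeR its indole effect was 1.498 (SE 0.557, unadjusted p 0.0121, adjusted p 1.0), and it was named after its values were seen. For the 5 targets that reached 10 CPM, the median log2 ratio with indole was 0.12 in wild type and 0.05 in the IDO1 line. CYP24A1, the vitamin D hydroxylase, was 1.23-fold higher with indole in wild type (1.18 to 1.29) and 1.18-fold in the IDO1 line (1.12 to 1.23). CES2, a carboxylesterase, was 1.15-fold higher in wild type (1.05 to 1.26). In edgeR's fits 6 of these targets were tested and 0 passed for indole or for line.

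Of 14 partners and coregulators of PXR, 10 were tested and 1 fell with line. That was NRIP1, a corepressor of nuclear receptors, with 1399 reads in solvent-treated wild type, 1265 in indole-treated wild type, 788 in solvent-treated IDO1 cells and 699 in indole-treated IDO1 cells. Its log2 fold change by edgeR was -0.89 (SE 0.219, adjusted p 0.0174), lower in both treatments. NCOA2, a coactivator, was 1.49-fold higher with indole in wild type (1.37 to 1.62). The list had a median log2 ratio with indole of 0.35 over 9 genes in wild type and -0.11 over 8 genes in the IDO1 line.

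In the rest of the ABC family the median log2 ratio with indole, by TMM, lay below 0 in both lines. It was not tested against the members. Medians of all genes were also below 0, at -0.04 in wild type and -0.01 in the IDO1 line. With library totals that of all genes in wild type was 0.14, so the sign of the family's median there may depend on the scaling. Of 41 other ABC genes, 32 had reads and 16 reached 10 CPM in wild type, with a median log2 ratio with indole of -0.10 and 0 of the 16 genes 2-fold apart. Under that minimum, ABCA12, a lipid transporter of the skin, went from 8 to 41 reads with indole in wild type (5.63-fold, 2.61 to 13.9). In the IDO1 line it went from 28 to 20. ABCA1, also under 10 CPM, had 51 (DMF) and 61 (indole) reads in wild type, and 62 and 18 among IDO1 cells. With indole, the IDO1 line over wild type gave ABCA1 a ratio of 0.298 (0.166 to 0.512). Both genes were named after their values were seen. The family's median in the IDO1 line was -0.14 over 15 genes. Among them ABCE1, a ribosome recycling factor that is no pump, was 1.44-fold lower with indole in wild type (ratio 0.692, 0.669 to 0.716). ABCF3, a family member without a membrane domain, was 1.42-fold higher in the IDO1 line (1.30 to 1.55). By edgeR 22 were tested and 0 passed for indole or for line.

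Drug uptake carriers had a median log2 ratio with indole of -0.28 over 4 genes in wild type and -0.04 over 4 in the IDO1 line. SLC29A1, a nucleoside transporter, had a ratio of 0.700 in wild type (0.667 to 0.735) and 1.15 in the IDO1 line (1.10 to 1.20). Conjugating enzymes had medians of 0.01 over 9 genes and 0.07 over 8. MGST1, a microsomal glutathione transferase, had a ratio of 0.501 in wild type (0.471 to 0.531) and 1.24 in the IDO1 line (1.18 to 1.31). By edgeR, 2 of 15 conjugating enzymes rose with line, GSTM2 (log2 fold change 2.24, SE 0.513, adjusted p 0.00912) and GSTM3 (8.43, SE 1.19, adjusted p 2.43e-05, a value that depends on the prior count). GSTM3 was at 0 in wild type with either treatment and at 43 and 44 reads among IDO1 cells, and reads of these near copies may be shared. The embryonic kidney markers above move with this contrast too, and their part was not tested.

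Of 12 other sensors of xenobiotics and bile acids, 10 reached 10 CPM in wild type and 1 of these was 2-fold higher with indole, where 1.36% of all genes compared were. NR3C1, the glucocorticoid receptor, had 105 reads in solvent-treated wild type, 228 in indole-treated wild type, 159 in solvent-treated IDO1 cells and 121 in indole-treated IDO1 cells. It was 2.39-fold higher with indole in wild type (1.89 to 3.04), and it reached 10 CPM only in that indole library (4.94 against 11.8 CPM). AHR, the aryl hydrocarbon receptor, which also binds indoles, was 1.61-fold higher with indole in the IDO1 line (1.34 to 1.93). There it reached 10 CPM only with indole (9.16 against 14.7 CPM). In wild type AHR was also higher with indole, with 222 reads in DMF and 263 in indole (10.4 and 13.6 CPM). By edgeR 11 of these genes were tested and 0 passed for indole or for line.

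**Figure D4:**
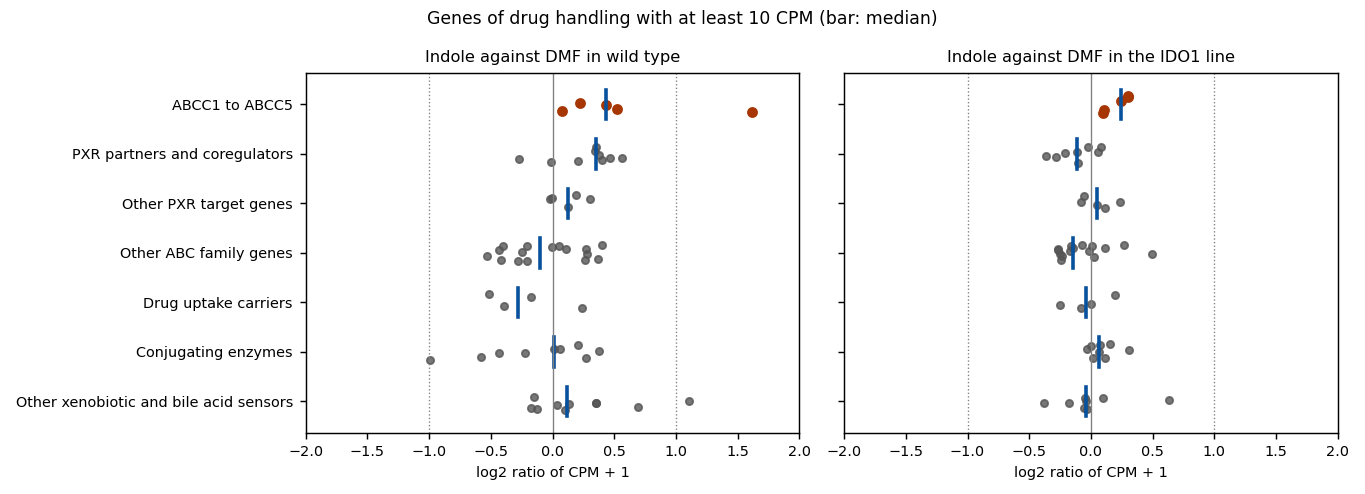
Log2 ratio of CPM plus 1 with indole over DMF (x axis) for genes with at least 10 CPM, by list (rows), in wild type and in the IDO1 line. Points are genes, bars are list medians and dotted lines mark 2-fold. The ABCC row has the highest median in both panels (0.43 and 0.24), and NR3C1 and ABCC3 are the points past 2-fold in wild type. Without ABCC3, which reached 10 CPM only in the indole libraries, the ABCC medians are 0.33 and 0.20, and that of the PXR partners in wild type (0.35) is then the higher.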

How the data were processed

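Messenger RNA was measured in 4 samples of HCT116 cells. Per the labels' protocols, an RNAqueous kit gave the RNA, and the Ion AmpliSeq transcriptome kit gave barcoded libraries. The deposited values are raw read counts, 1 amplicon target per gene, and were not normalized by the authors. Per the submitters' processing notes the build was hg19. For the aligner and counting tool, nothing is given in the sources used here. Members and lists were chosen with earlier results of these data known.

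Counts were scaled by TMM (edgeR 4.0.16, R 4.3.3) to CPM. Ratios between 2 libraries carry an exact 95% Clopper-Pearson interval for how reads divide between them (scipy 1.17.1). For counts of genes at least 2-fold apart, ratios were taken on log2 of CPM with a pseudocount of 1, where 1 of the 2 libraries had at least 10 CPM. A count of 0 was given a floor of 3 reads. Raw counts of all 4 libraries were also modelled on line and treatment by edgeR's quasi-likelihood test on genes kept by filterByExpr, with Benjamini-Hochberg adjustment at 0.05 over 13122 genes. That fit has 1 residual degree of freedom, which measures how far the 4 libraries depart from additive effects of line and treatment. A response to indole in 1 line only counts there as error. Its SE is the log2 fold change over the root of the F statistic. Separate cultures are not stated. A p-value then only sets an effect against that departure, which may be technical or a difference between lines in their response. The filter kept 7 of the 10 members, without NR1I2, CYP3A4 and CYP3A5.

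Named genes were all members, up to 2 genes per list and comparison with the largest log2 ratio, list genes that passed a fit, and the 3 genes nearest in profile to the widest-ranging member. The result of 1 gene under this rule is not reported here. Alternatives were library totals, median-of-ratios factors, other pseudocounts and minimums, DESeq2 1.42.0, other filters, 1 factor alone, and 1 library left out. Medians of members with 10 CPM in both libraries, and list genes under 10 CPM, were added after the values were seen. Sequences were matched by symbol in RefSeq tables.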

Additional observations from a re-analysis of the deposited data

Results flagged for a closer look

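The ratios of ABCB1 with indole lay on opposite sides of 1 in the 2 lines. Its ratio of indole over DMF was 1.54 in wild type (20 to 28 reads) and 0.941 in the IDO1 line (57 to 45 reads), and both intervals of counting error hold 1. Those of ABCG2 did so in the reverse order, with 0.471 in wild type (21 to 9 reads) and 1.97 in the IDO1 line (23 to 38 reads). The ABCG2 interval holds 1 in wild type (0.190 to 1.07) but not in the IDO1 line (1.14 to 3.46). These directions were the same under all 3 scalings, but each line has 1 library per treatment, so the difference between lines was not tested.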

How the results depend on the processing

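Each group has 1 library, so no replicate could be left out within a group, and values without the library of wild type with indole come from fits on 1 factor alone. No paired analysis was possible because the labels carry no replicate numbers and no group has a replicate. Under the 7 alternatives of each fit, 0 members passed for indole or for line. Leaving out wild type with indole gave 0 genes called for indole and 468 for line, with line effects of 0.11 for ABCC3 and 0.065 for ABCC4, which turned their sign. ABCG2 also turned for indole with DESeq2 (-0.011), and ABCC1 turned for line with at least 10 CPM in 2 libraries (-0.0077) and with line alone (-0.016). The cause was not tested.

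All 13122 genes gave 0 calls for indole, but 6 with library totals, 10 unfiltered and 5 with a minimum of 10 CPM in 2 libraries. For line, 322 calls became 76 with that minimum, 208 with line alone and 88 with DESeq2. The count of genes 2-fold apart went from 252 to 149 with a pseudocount of 5 and to 118 with a minimum of 50 CPM for indole in wild type. For indole in the IDO1 line it went from 7 to 14 with a minimum of 1 CPM and to 3 with 50 CPM. For the lines in DMF it went from 38 to 25 with a pseudocount of 5, 236 with 1 CPM and 12 with 50 CPM, and in indole from 395 to 240, 756 and 177. A minimum of 50 CPM leaves only ABCC1 and ABCC2, so the count of members went from 1 to 0 for indole in wild type and for the lines in indole. With 1 CPM the latter was 2, because ABCG2 entered. Of 60 member ratios under another scaling, 58 stayed within their counting interval, and ABCC1 and ABCC2 with indole in wild type moved to 1.63 and 1.53 with library totals. Depth limits CYP3A5, ABCB1 and ABCG2, which had at most 57 reads.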
